A study of Mus musculus with 8 samples.

Results

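The genes described here are 37 named genes of the peroxisome proliferator-activated receptor (PPAR) programme and of fatty acid oxidation, taken as the rows of the normalized count table whose symbol equalled a name on the list. All 37 were found among the 55487 genes listed, and 33 of them averaged 10 normalized counts or more and were tested among 16352 genes. The study sequenced poly(A) RNA from the ileum, the last stretch of the small intestine, of 4 wild-type mice (Gsdme+/+, WT) and 4 Gsdme-deficient mice (Gsdme-/-, Gsdme_KO). Gsdme encodes gasdermin E, a protein that forms membrane pores once cut by caspase-3. Every mouse of both genotypes had received irinotecan, a topoisomerase I inhibitor used as a cancer drug and known to injure the gut lining, so no mouse without the drug enters any comparison. The sources used here do not give strain, age, sex, the drug's dose and time, or how the Gsdme allele was made, and each genotype is 1 group of 4 animals. The libraries are called by their column headers (WT3, WT5, WT7, WT8, KO4, KO5, KO7 and KO8).

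PPARs are nuclear receptors that bind fatty acids, pair with a retinoid X receptor and switch on genes for taking up, storing and burning fat. A fatty acid is first joined to coenzyme A, then passed into mitochondria on carnitine, and there shortened step by step by beta-oxidation, whereas very long and branched chains are shortened in peroxisomes. In the small intestine this programme belongs above all to the absorptive enterocytes of the villus, which handle dietary fat.

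The libraries held between 15617407 (KO7) and 23437343 (KO5) recovered reads in genes. Gsdme itself (chr6:50188888-50263862, minus strand, GRCm38) had 2169 to 3376 normalized counts in WT and 113, 187, 634 and 464 in KO4, KO5, KO7 and KO8. Its difference was -3.32 on the log2 scale (two-sided exact permutation test, p = 0.0286, the smallest that 4 against 4 libraries can give), and its adjusted p in limma was 0.786. It was called by DESeq2 (adjusted p = 2.3e-07), and by limma with the mature enterocyte covariate (adjusted p = 0.0165) and without KO4 and KO5 (adjusted p = 0.0275). Krt8 and Epcam, the most abundant of the 10 general epithelial markers, led a summed level of 248921 to 290074 normalized counts in WT and 248566 to 285381 in Gsdme_KO. The ileal markers, led by Fabp6 and Slc10a2, were present in every library, at 52855 to 127979 in WT. Their sum was at 34744 in KO4 and 48208 in KO5, below that range, and at 118956 in KO7 and 97164 in KO8. Of these 7 markers, 5 were below every WT library in KO4 and 4 in KO5. Slc51b, at 3743 in KO4 and 3852 in KO5, was inside its WT range. Fgf15 was at 2600 in KO4 and 4901 in KO5, its highest library, where WT had 201 to 3001. Markers of cell types also set KO4 and KO5 apart. The summed 12 mature enterocyte markers (Anpep and Vil1 highest) were at 105303 in KO4 and 138494 in KO5, below the WT range of 229381 to 361754, and at 374289 in KO7 and 282897 in KO8. WT8 gave the lower end of that WT range. Cd79a, a signalling chain of the B cell receptor and the most abundant B cell marker, was at 2029 (KO4) and 1240 (KO5), where the remaining 6 libraries had 121 to 196. The T cell markers (Cd4 and Cd8a highest) were at 1170 (KO4) and 924 (KO5), with 318 to 485 elsewhere. Smooth muscle (Acta2, Myh11), macrophage (C1qa, Csf1r), proximal small intestine (Slc40a1, Bmp3), liver (Ttr, Apoh) and red cell (Hbb-bs, Hba-a1) markers overlapped between genotypes. Single libraries still left the WT range. The summed macrophage markers were at 4583 in KO4 and 3885 in KO5, where WT had 2654 to 3530. Summed smooth muscle markers were at 76015 in KO5 and 48514 in KO4, where WT had 48980 to 62244. In KO4, 3 of these 6 markers were below every WT library, whereas Des, at 11719, was above its WT range of 7710 to 9289. Red cell markers were at 63.6 in KO4 and 71.9 in KO7, where WT had 100 to 302. No marker reported here was called by limma. DESeq2 called the B cell markers Fcer2a, Pax5 and Bank1 as higher in Gsdme_KO (adjusted p 0.0352 to 0.0402). Fcer2a was at 701 in KO4 and 402 in KO5 and at most 7.31 elsewhere, Pax5 at 973 and 543 and at most 12.2 elsewhere, and Bank1 at 566 and 358 and at most 36.5 elsewhere.

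No member was called between the genotypes. Of the 33 tested members, 0 had a Benjamini-Hochberg adjusted p under 0.05 in limma (adjusted p 0.849 to 0.999), in edgeR or in DESeq2, where 0.00612%, 0.00612% and 0.055% of all tested genes were called. The only gene called by limma, and by edgeR, was the immunoglobulin gene segment Igkv10-96, which is no member. At an unadjusted p under 0.05 in limma, 1 member, Angptl4, was lower in Gsdme_KO, against 1.77% of all genes, and 0 members were higher, against 2.61%. edgeR and DESeq2 each gave the same count of 1 lower and 0 higher. Of all 16352 tested genes, edgeR gave 258 lower and 724 higher, and DESeq2 297 lower and 838 higher. Angptl4 was also the only member whose 4 Gsdme_KO values lay outside the WT values, as 1.19% of all genes did on the lower side, and 0 members did so on the higher side, where 1.31% of all genes did. Of the 33 log2 fold changes, 8 were positive and 25 negative, with a median of -0.10, beside a median of 0.00 over all genes. In bulk tissue, fewer cells of a type and less RNA per cell cannot be told apart.

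**Figure D1:**
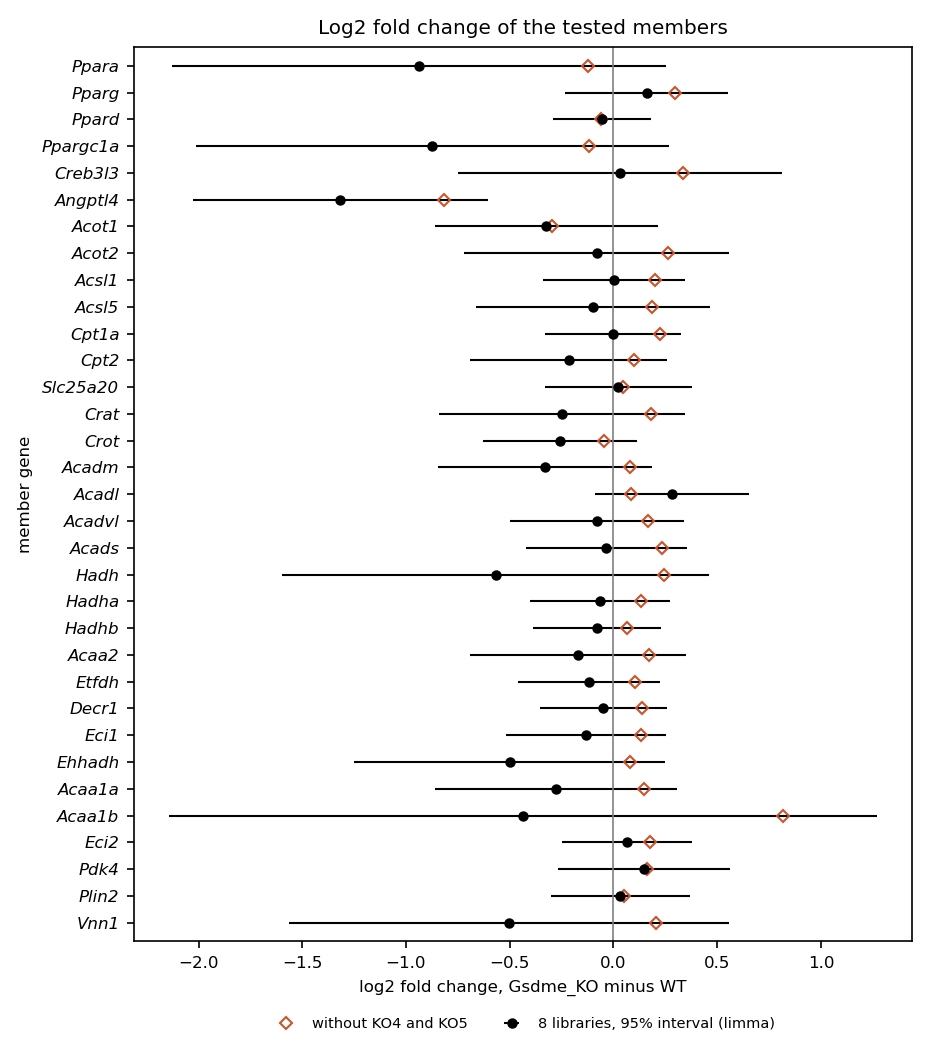
Log2 fold change (Gsdme_KO minus WT, log2(normalized count + 1) scale) of each of the 33 tested members, with black points and 95% intervals from limma over 8 libraries and open diamonds for the fit without KO4 and KO5. Angptl4, at -1.32, has the only interval that does not include 0, and most diamonds lie to the right of their points.

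Angptl4 (chr17:33773750-33781830, minus strand) encodes a secreted inhibitor of lipoprotein lipase, made by enterocytes among other cells and a classical PPAR target. It had 2133, 1200, 1120 and 1459 normalized counts in WT3, WT5, WT7 and WT8, and 405, 406, 969 and 679 in KO4, KO5, KO7 and KO8. The lowest WT library lay above the highest Gsdme_KO library, KO7, by a small margin, and KO4 and KO5 were the lowest of all. The mean was 1478 ± 460 (SD, n = 4) in WT and 615 ± 269 (SD, n = 4) in Gsdme_KO. The log2 fold change was -1.32 (SE 0.313, 95% interval -2.03 to -0.61), with a limma p of 0.00243 that became 0.849 after adjustment over all genes. The two-sided exact permutation test gave p = 0.0286, the smallest possible. The member was known from earlier results of these data to be low in Gsdme_KO, so that p is a description. Without KO4 and KO5 the log2 fold change was -0.82 (limma, adjusted p = 0.999). With the mean log2(normalized count + 1) of the 12 mature enterocyte markers as a covariate it was -0.94 (limma, adjusted p = 0.995). DESeq2 gave the smallest adjusted p of any setting, 0.0922, and the largest was 1. KO4 and KO5 were lowest in both the enterocyte markers and Angptl4, and WT8 was below KO7 and KO8 in the markers and above them in Angptl4. The part of enterocyte content in the Angptl4 values was not tested. Fgf21, a fasting hormone made mainly by the liver, had 1 read in WT3, 5 in KO8 and 0 in the other 6 libraries, and was not tested.

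**Figure D2:**
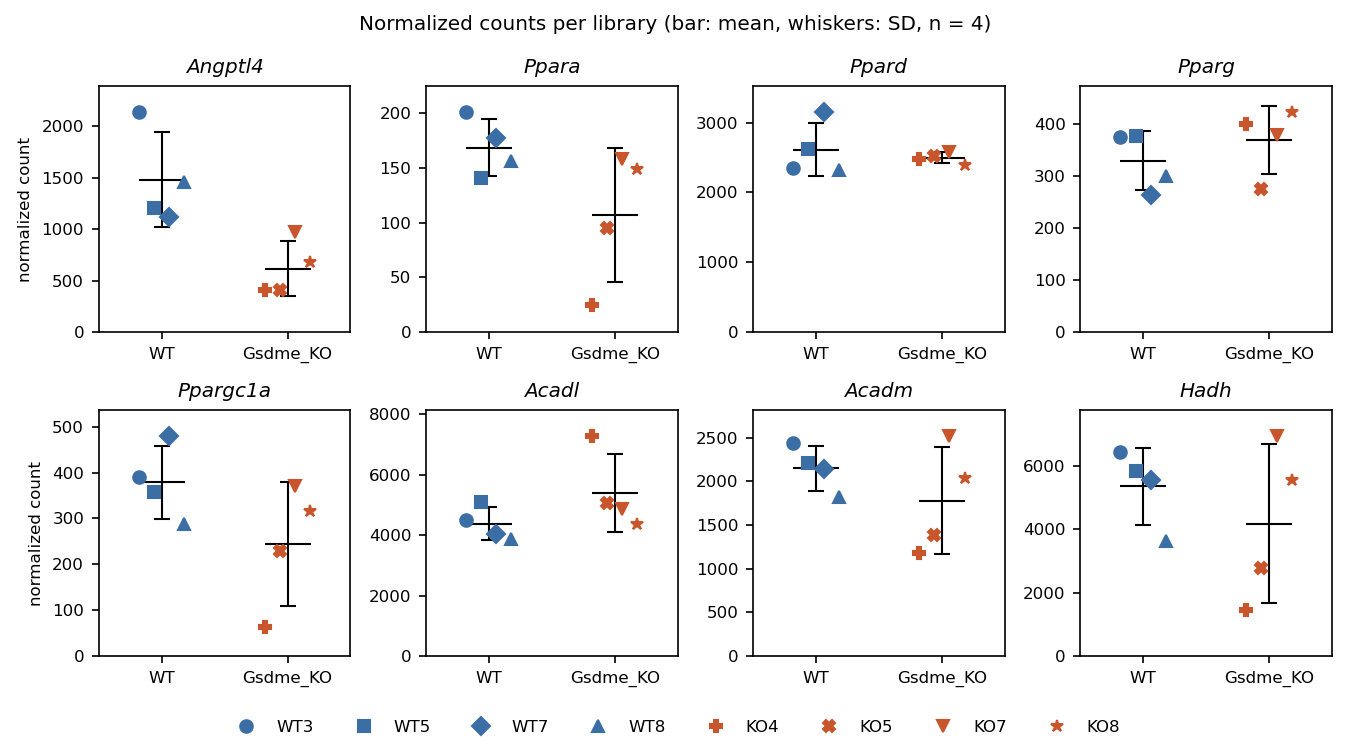
Normalized counts (linear axis from 0) of 8 members in each library, WT in blue and Gsdme_KO in orange, with bars for the mean and whiskers for the SD (n = 4). Angptl4 separates the genotypes, whereas Ppara, Ppargc1a, Acadm and Hadh are lowest in KO4 and KO5 and Acadl is highest in KO4.

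Among the receptors, Ppard, the widely expressed PPAR of the gut, had 2355, 2622, 3146 and 2323 normalized counts in WT3, WT5, WT7 and WT8, and 2483, 2524, 2582 and 2398 in KO4, KO5, KO7 and KO8. All 4 Gsdme_KO values lay inside the WT range. Its log2 fold change was -0.05, with a 95% interval of -0.29 to 0.18. Ppara, the receptor that drives fat burning in liver and enterocytes, had 201, 141, 177 and 156 in WT3, WT5, WT7 and WT8, and 24.9, 95.4, 158 and 149 in KO4, KO5, KO7 and KO8. KO4 and KO5 lay below every WT library and KO7 and KO8 inside the WT range. The log2 fold change of Ppara was -0.94 (95% interval -2.13 to 0.25, limma adjusted p = 0.849), and -0.12 without KO4 and KO5. Pparg, the receptor best known from adipocytes, had 376, 378, 264 and 300 in WT3, WT5, WT7 and WT8, and 400, 275, 379 and 423 in KO4, KO5, KO7 and KO8. The genotypes overlapped, at a log2 fold change of 0.16 (95% interval -0.23 to 0.55). The summed 6 adipocyte markers (Cfd and Plin1 highest) followed the order of Pparg only in part. They were lowest in KO5, at 454, which was also the lowest Gsdme_KO library for Pparg. KO4, KO7 and KO8 were higher in both, with summed markers of 2237, 2166 and 1772. The markers were next lowest in WT3, at 934, whereas WT7, the lowest library for Pparg, had 2016. The part of adipocyte content in the Pparg values was not tested.

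Of the regulators beside the receptors, Creb3l3, a membrane-tethered transcription factor of liver and intestine that acts together with PPARα, had 3495, 4319, 3687 and 1405 normalized counts in WT3, WT5, WT7 and WT8, and 2639, 2286, 3765 and 3749 in KO4, KO5, KO7 and KO8. Its lowest library was WT8, and its log2 fold change was 0.03. Ppargc1a encodes PGC-1α, a coactivator of PPARs and of mitochondrial genes, and is described because its values were seen to follow those of Ppara. It had 287 to 479 in WT, and 62.7, 228, 372 and 317 in KO4, KO5, KO7 and KO8. Its low libraries were again KO4 and KO5, and the log2 fold change moved from -0.87 (SE 0.502, limma adjusted p = 0.849) to -0.12 without them.

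The enzymes that attach fatty acids to coenzyme A or free them again did not separate the genotypes. Acsl5, the main long-chain acyl-CoA synthetase of enterocytes, was the most abundant member, at 25929, 27761, 17503 and 14790 normalized counts in WT3, WT5, WT7 and WT8, and 16716, 15191, 25867 and 21634 in KO4, KO5, KO7 and KO8. Each genotype spanned nearly the same range, and the log2 fold change was -0.10 (95% interval -0.66 to 0.47). Acsl1, a synthetase of many tissues, had 941, 1021, 902 and 722 in WT3, WT5, WT7 and WT8, and 731, 827, 1104 and 946 in KO4, KO5, KO7 and KO8. Its log2 fold change was 0.00 (95% interval -0.34 to 0.35). Acot1 and Acot2, a cytosolic and a mitochondrial thioesterase, ran between 70.1 and 162 in all 8 libraries, with log2 fold changes of -0.32 and -0.08. They are neighbours on chromosome 12, and 23.7% of the 50-base windows of the Acot1 transcript and 24.5% of those of Acot2 occur in the other transcript, so the split of reads between them is uncertain. Per kilobase of exon, Acsl5 had the highest WT level of any member, 4419 normalized counts per kilobase, ahead of Acadl with 2183 and Vnn1 with 1739. The lowest tested were Acot1 with 30.9, Ppara with 44.0 and Ppargc1a with 57.5.

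In the carnitine shuttle, Cpt1a forms the acylcarnitine at the outer mitochondrial membrane and sets the pace of import. It had 3095, 2504, 2563 and 2480 normalized counts in WT3, WT5, WT7 and WT8, and 2105, 2430, 3215 and 2984 in KO4, KO5, KO7 and KO8. WT3 stood above the other WT libraries, KO4 was lowest and KO7 highest, and the genotype means were nearly equal, at 2661 ± 292 and 2684 ± 507 (SD, n = 4 each). The log2 fold change of Cpt1a was -0.00 (95% interval -0.33 to 0.33). Slc25a20, the translocase that carries acylcarnitine across the inner membrane, had 2977, 3169, 2602 and 1908 in WT3, WT5, WT7 and WT8, and 2440, 2808, 2895 and 2516 in KO4, KO5, KO7 and KO8, at a log2 fold change of 0.02. The Gsdme_KO libraries all lay inside the WT range. Cpt2, which rebuilds acyl-CoA inside mitochondria, Crat, for short chains, and Crot, for the medium chains that leave peroxisomes, had log2 fold changes of -0.22, -0.25 and -0.26. Each of these 3 was lowest in KO4 or KO5. The median of the 5 shuttle genes was -0.22, and 0.10 without KO4 and KO5.

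Mitochondrial beta-oxidation was represented by 11 genes, of which 10 had a negative log2 fold change and 1, Acadl, a positive one, with a median of -0.08 and 0 called. Hadha, the alpha subunit of the trifunctional protein that performs the later steps on long chains, had 6635, 6545, 5882 and 4843 normalized counts in WT3, WT5, WT7 and WT8, and 4790, 5096, 6918 and 6103 in KO4, KO5, KO7 and KO8. KO4 and WT8 were nearly level at the bottom and KO7 was highest. The log2 fold change of Hadha was -0.07 (95% interval -0.40 to 0.27). Hadhb, its beta subunit, ran from 2186 to 3090, and the ratio of Hadha to Hadhb stayed between 2.12 and 2.40 over the 8 libraries. The pair is transcribed in opposite directions from starts with 85 bases between them, and that stretch is shown because it is the sequence the 2 genes share. It has 69.4% G and C and holds no AGGTCA, the core letters of a nuclear receptor site, on either strand (GRCm38.p6 from RefSeq, chr5:30155163-30155247, plus strand, no letters in capitals).
Hadha and Hadhb between starts: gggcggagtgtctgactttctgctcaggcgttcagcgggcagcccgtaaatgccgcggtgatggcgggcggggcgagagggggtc

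The acyl-CoA dehydrogenases, which take the first step of each cycle and differ in chain length, did not move as a block. Acadl, the long-chain enzyme, had 4512, 5084, 4026 and 3884 normalized counts in WT3, WT5, WT7 and WT8, and 7271, 5081, 4854 and 4374 in KO4, KO5, KO7 and KO8. KO4 was the highest library and the other 3 Gsdme_KO libraries lay inside the WT range. Its log2 fold change of 0.28 (SE 0.163, 95% interval -0.09 to 0.65, limma adjusted p = 0.849) was the highest of the members. Acadm, the medium-chain enzyme, is set beside it because the ratio was seen to differ between libraries. It had 1815 to 2438 in WT, and 1178, 1386, 2513 and 2038 in KO4, KO5, KO7 and KO8. The ratio of Acadl to Acadm was 1.85 to 2.30 in WT, 1.93 in KO7 and 2.15 in KO8, and 6.17 in KO4 and 3.67 in KO5. An annotated gene of the same strand, Gm15793, overlaps Acadl, so reads could be split or lost there. The very-long-chain Acadvl and short-chain Acads had log2 fold changes of -0.08 and -0.04.

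Hadh, the dehydrogenase of medium and short chains, had the widest spread among the mitochondrial members and is named for that reason. It had 6428, 5848, 5544 and 3619 normalized counts in WT3, WT5, WT7 and WT8, and 1459, 2787, 6930 and 5538 in KO4, KO5, KO7 and KO8. KO4 and KO5 lay below all WT libraries and KO7 above all of them. The log2 fold change of Hadh was -0.57 (95% interval -1.60 to 0.46), and 0.24 without KO4 and KO5. The ratio of Hadh to Hadha was 0.305 in KO4 and 0.547 in KO5, and 0.747 to 1.00 in the other 6 libraries. The remaining mitochondrial members were the thiolase Acaa2, the auxiliary enzymes Decr1 and Eci1 for unsaturated chains, and Etfdh, which passes the electrons to the respiratory chain. Their log2 fold changes were -0.17, -0.05, -0.13 and -0.12. Without KO4 and KO5, all 11 mitochondrial genes had a positive log2 fold change, with a median of 0.13 and 0 called.

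In peroxisomes, Ehhadh, the bifunctional enzyme and a PPARα target, had 1536, 1292, 1270 and 1083 normalized counts in WT3, WT5, WT7 and WT8, and 489, 754, 1658 and 1115 in KO4, KO5, KO7 and KO8. Acaa1a, a peroxisomal thiolase, had 3139, 3288, 2438 and 2122 in WT3, WT5, WT7 and WT8, and 1531, 1798, 3405 and 2634 in KO4, KO5, KO7 and KO8. Both genes were lowest in KO4 and KO5 and highest in KO7. Their log2 fold changes were -0.50 (95% interval -1.25 to 0.25) and -0.28 (95% interval -0.86 to 0.31). Acaa1b, the second thiolase gene, ran from 33.2 in KO4 to 318 in KO7, and the ratio of Acaa1a to Acaa1b varied from 10.7 to 46.1. Of their 50-base transcript windows, 34.0% of those of Acaa1a and 35.5% of those of Acaa1b occur in the other, so their separate counts are uncertain. Eci2, an isomerase for unsaturated chains, had a log2 fold change of 0.07. Relative to the WT mean, the median of the 4 peroxisomal genes was -1.11 in KO4 and -0.68 in KO5 on the log2 scale. The median log2 fold change of the 4 was -0.36, and 0.16 without KO4 and KO5.

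The omega-hydroxylases, PPARα targets that oxidize the far end of fatty acids in liver and kidney, were at the floor of detection. Cyp4a14 and Cyp4a31 had 0 reads in all 8 libraries, which allows up to 3 reads in each and covers counting error only, and Cyp4a10 had at most 1. None of the 3 was tested.

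Among other targets, Vnn1, a PPARα-driven pantetheinase on the surface of enterocytes, had 4734, 6632, 3130 and 2307 normalized counts in WT3, WT5, WT7 and WT8, and 1264, 2222, 5094 and 3922 in KO4, KO5, KO7 and KO8. KO4 and KO5 were lowest, with WT8 just above, and the log2 fold change was -0.50 (95% interval -1.56 to 0.56). Plin2, which coats lipid droplets, had 1993, 2251, 1796 and 1792 in WT3, WT5, WT7 and WT8, and 2498, 1547, 2093 and 1952 in KO4, KO5, KO7 and KO8. The highest and the lowest Plin2 values were KO4 and KO5, and the log2 fold change was 0.03. Pdk4, the kinase that turns pyruvate dehydrogenase off when fat is burned, ran from 204 to 371 in WT and 303 to 346 in Gsdme_KO, at a log2 fold change of 0.15.

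Promoter letters were read for the 29 members with an entry in the RefSeq table (GRCm38.p6), in windows from 250 bases before to 50 bases after the start, on both strands. Angptl4, Acaa2, Crat, Decr1, Vnn1, Cyp4a10, Cyp4a14 and Cyp4a31 had no entry and are not among the 29. The PPAR response element core, a direct repeat of AGGTCA with 1 base between the copies, was in 0 of the 29 (exact Clopper-Pearson 95% interval up to 11.9%) and in 0.0481% of 27025 genes. With any letter in place of the T in each copy (AGGNCA), it was again in 0 of the 29, against 0.451% of all genes. A single AGGTCA, which the strict repeat also contains, was in 6 of the 29, or 20.7% (exact 95% interval 7.99% to 39.7%), against 18.1% of all genes. These 6 were Acadm, Acadvl, Cpt1a, Creb3l3, Plin2 and Pparg. A match is a run of letters and no binding was measured. The upstream parts of 4 of these windows, from 250 to 31 bases before the start, are printed because they belong to members that differed in pattern, with Plin2 highest in KO4 and the other 3 lowest or nearly lowest there. Capitals mark AGGTCA, or TGACCT where it lies on the opposite strand. The windows are chr19:3323051-3323270 (plus strand) for Cpt1a, chr3:153944674-153944893 (minus) for Acadm, chr11:70015459-70015678 (minus) for Acadvl and chr4:86670090-86670309 (minus) for Plin2. The start used is that of RefSeq. GENCODE M21 begins Cpt1a earlier, at 3322334, so the Cpt1a window lies inside the gene as annotated there.
Cpt1a: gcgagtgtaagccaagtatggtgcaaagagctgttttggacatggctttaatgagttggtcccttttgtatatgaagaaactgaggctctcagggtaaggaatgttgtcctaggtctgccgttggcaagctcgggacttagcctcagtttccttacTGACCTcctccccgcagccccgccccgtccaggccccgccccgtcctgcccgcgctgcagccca
Acadm: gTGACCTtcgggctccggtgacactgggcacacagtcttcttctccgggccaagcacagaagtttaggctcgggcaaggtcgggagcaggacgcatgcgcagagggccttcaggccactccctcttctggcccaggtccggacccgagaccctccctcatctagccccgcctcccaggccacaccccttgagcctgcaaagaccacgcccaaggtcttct
Acadvl: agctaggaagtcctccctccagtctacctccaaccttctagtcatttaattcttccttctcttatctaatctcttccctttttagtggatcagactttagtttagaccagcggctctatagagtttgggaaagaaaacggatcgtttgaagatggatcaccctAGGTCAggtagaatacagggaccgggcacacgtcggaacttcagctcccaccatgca
Plin2: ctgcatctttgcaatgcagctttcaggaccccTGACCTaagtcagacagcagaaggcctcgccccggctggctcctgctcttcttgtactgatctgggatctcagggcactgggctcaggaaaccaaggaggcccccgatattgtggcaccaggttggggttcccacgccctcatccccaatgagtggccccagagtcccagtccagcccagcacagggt

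Across the members, the spread lay between libraries more than between genotypes. The lowest of the 8 libraries was KO4 for 19 of the 33 tested members, WT8 for 10, KO5 for 2 and WT7 for 2. KO4 or KO5 was thus lowest for 63.6% of the members, against 34.1% of all tested genes. KO7 was the highest library for 15 members. Acadl and Plin2 were the 2 members highest in KO4. Within WT, WT8 was lowest for 28 of the 33 members (84.8%, against 31.3% of all genes), and within Gsdme_KO, KO7 was highest for 28 (84.8%, against 30.6%). The members' median relative to the WT mean was 0.22 in WT3, 0.19 in WT5, -0.04 in WT7 and -0.28 in WT8, and for KO4, KO5, KO7 and KO8 it was -0.43, -0.25, 0.23 and 0.04, on the log2 scale. The libraries in which the members were low were those in which the mature enterocyte markers were low, in both genotypes. The order differed, as WT8 had a lower members' median than KO5 but higher summed markers (229381, against 138494 in KO5). What the enterocyte content does to the members was not tested. The summed general epithelial markers, at 266644 in KO4 and 285381 in KO5, were inside the WT range in both. Not every single marker was. Of the 10, 3 were below every WT library in KO4 and 2 in KO5. Epcam was below its WT range (38894 to 50707) in both, at 34389 and 36133. Krt18 (13978 and 14934) and Elf3 (11855 and 12380) were above their WT maxima of 10170 and 10527.5.

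**Figure D3:**
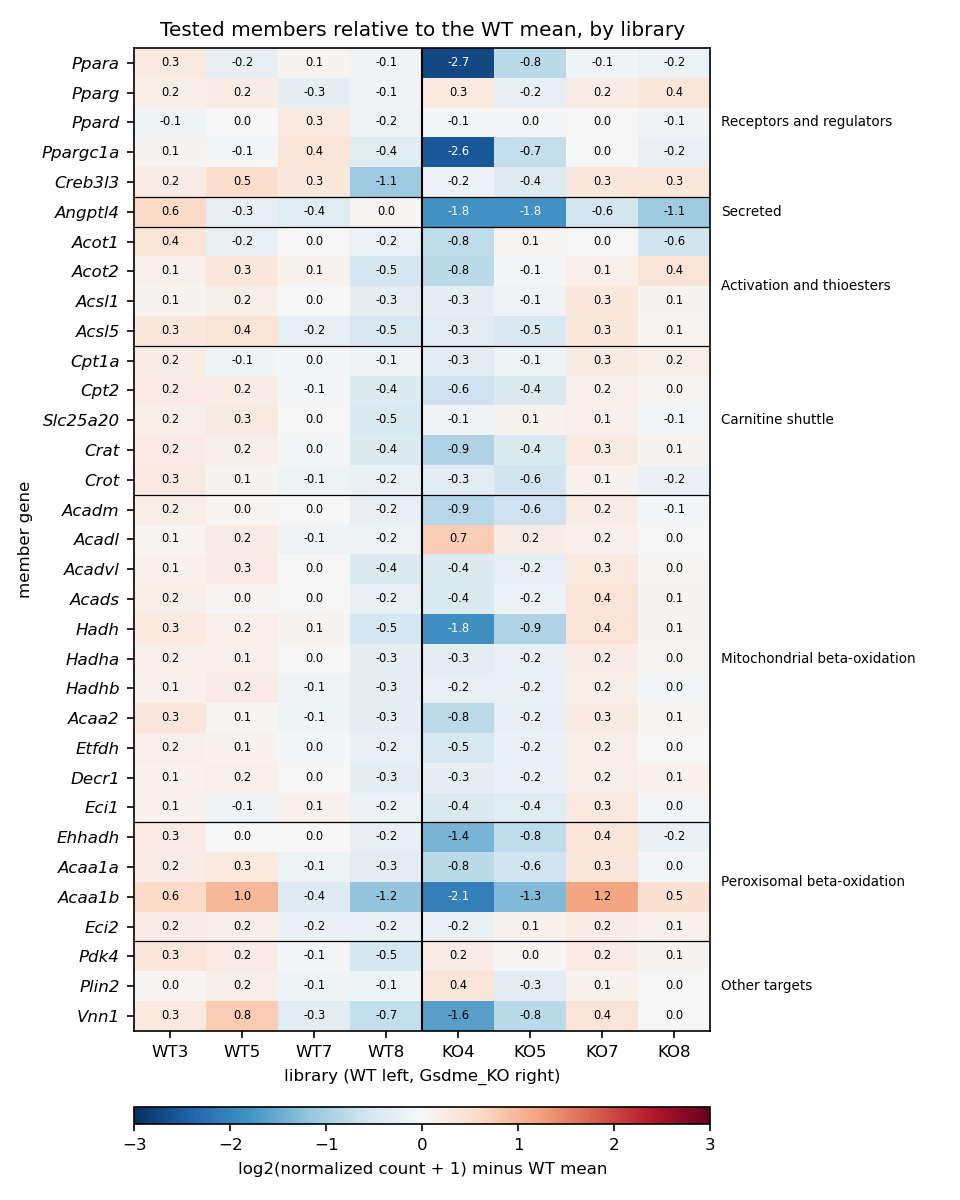
Log2(normalized count + 1) minus the WT mean for the 33 tested members (rows, grouped by role) in the 8 libraries (columns, WT left of the line). Columns KO4 and KO5 are blue for most rows, Ppara and Ppargc1a are darkest in KO4, and Acadl is orange there.

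**Figure D4:**
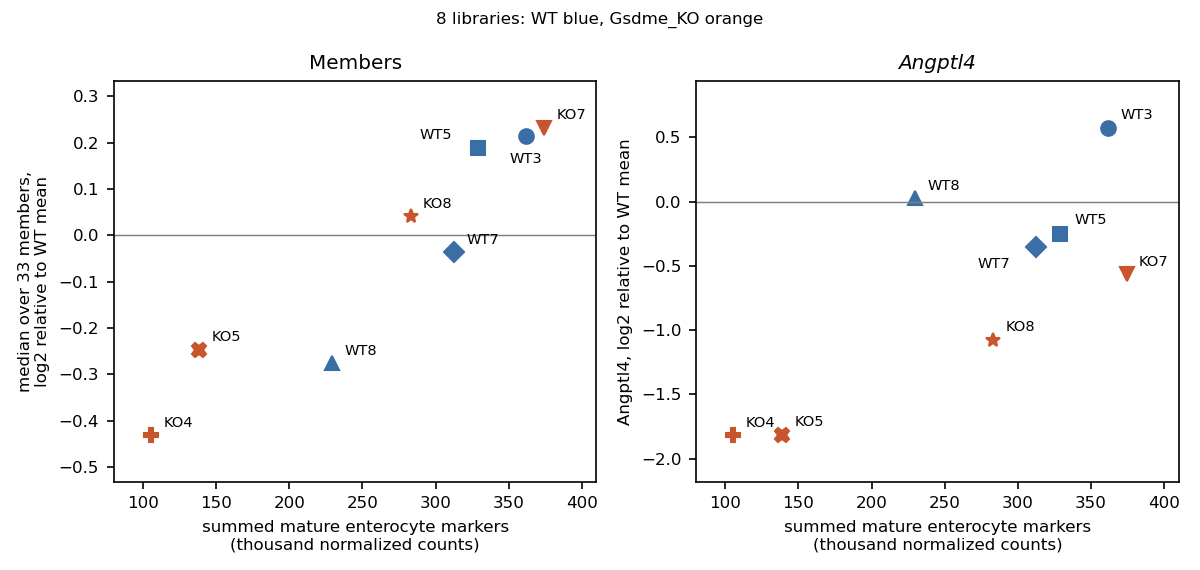
Median of the 33 tested members (left) and Angptl4 (right), each as log2 relative to the WT mean, against the summed mature enterocyte markers in 1000 normalized counts, 1 symbol per library. On the left KO4, KO5 and WT8 are at the low end, and on the right WT8 lies above KO7 and KO8.

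Without KO4 and KO5, a setting picked once these values had been seen, 27 of the 33 members had a positive log2 fold change and 6 a negative one, with a median of 0.14 beside 0.01 over all genes. Again 0 were called by limma, against 0.00617% of all genes. With the mean log2 level of the mature enterocyte markers as a covariate, also chosen later, the members' median was 0.13 and 0 were called. Angptl4 stayed the member with the lowest log2 fold change in both fits.

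The rest of the pathway was taken from a list of 94 further genes of fatty acid uptake, oxidation, ketone bodies and PPAR partners, of which 93 were found and 87 tested. Of these, 23 had a positive and 64 a negative log2 fold change, with a median of -0.14 and 0 called, by limma, edgeR or DESeq2. At an unadjusted p under 0.05, limma gave 1 lower and 0 higher, edgeR 0 lower and 2 higher, and DESeq2 1 of each. The limma shares over all genes were 1.77% lower and 2.61% higher. For edgeR, 258 of all 16352 genes were lower and 724 higher, and for DESeq2 297 lower and 838 higher. KO4 or KO5 was the lowest library for 62 of the 87 (71.3%). Fabp2, the intestinal fatty acid binding protein and the most abundant of them, had 135055, 108870, 103989 and 58717 normalized counts in WT3, WT5, WT7 and WT8, and 27916, 31563, 117049 and 89387 in KO4, KO5, KO7 and KO8. Cyp4f14, an omega-hydroxylase of the intestine, had 15365 to 22948 in WT, and 5092, 9561, 21825 and 17352 in KO4, KO5, KO7 and KO8. Slc22a5, the carnitine importer of the cell membrane, had 1669 to 2209 in WT, and 1033, 1022, 1958 and 1599 in KO4, KO5, KO7 and KO8. KO4 and KO5 were the low libraries for each of these 3. The log2 fold changes were -0.82 for Fabp2, -0.76 for Cyp4f14 and -0.54 for Slc22a5 (limma, adjusted p = 0.849 each). Echdc1, which clears side products of fatty acid synthesis, had 1031 to 1065 in WT, and 736, 706, 1045 and 969 in KO4, KO5, KO7 and KO8, at -0.29. Without KO4 and KO5, 65 of 86 tested had a positive log2 fold change, with a median of 0.07.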

How the data were processed

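Poly(A) RNA of 8 ileum samples was sequenced, 1 library per mouse, in strand-specific libraries per the labels' protocols. Per the submitters' processing notes the authors used HISAT2, SAMtools, Subread featureCounts, DESeq2 and the build GRCm38. The sources used here do not give versions, the annotation or whether counting used strand, so reads of overlapping genes on opposite strands (Acadvl with Dvl2, Acaa1a with Myd88, Acsl5 with Zdhhc6, Crat with Dolpp1) may be mixed. The authors deposited 1 table of normalized signal, read counts divided by a size factor per library (0.821 to 1.33). All values (100%) gave whole reads within 0.01 reads, which were used for edgeR and DESeq2. Column headers assign libraries to a genotype but cannot be tied to the mouse numbers in the labels. No 2 libraries agreed within sampling noise.

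Genotypes were compared on log2(normalized count + 1) with limma-trend (R 4.3.3, limma 3.58.1), for genes with a mean of at least 10, with Benjamini-Hochberg adjustment over all 16352 genes. This scale understates changes of low genes. Alternatives were pseudocounts of 0.5 and 5, no filter, a mean of at least 50, TMM and quantile scaling, array weights, an epithelial marker covariate, edgeR 4.0.16, DESeq2 1.42.0 and leaving out each library. A mature enterocyte covariate and leaving out KO4 and KO5 together were added after seeing the data. Scripts were tested on simulated data. Members, gene lists and tests were chosen with earlier results of these data known. Per-library values were given for Gsdme, Angptl4, the PPAR genes, members called or not overlapping, and the 2 most abundant members per role, and genes named beyond that rule are said to be so or are given by range. Of the further pathway genes, the 2 most abundant and the 2 of smallest p were named, and of each marker list the 2 most abundant, except that some marker results are not reported here. Positions are from GENCODE M21. Levels per kilobase use the union of exons. Protein sequences were not analysed here.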

Additional observations from a re-analysis of the deposited data

Results flagged for a closer look

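Cpt1a in WT library WT3 stood at 3095 normalized counts, apart from the 2480 to 2563 of the other 3 WT libraries. Its gap to the nearest of them was 0.864 of the group's range, above Dixon's 95% critical value for 4 samples. It was 1 of 68 groups checked, and chance alone marks about 1 in 20 groups.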

How the results depend on the processing

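The 33 tested members gave 0 calls in every alternative, and so did the other pathway genes. The count of all genes called, 1, was 0 with the epithelial covariate, 2 with the mature enterocyte covariate, 9 with DESeq2 and 0 to 1 on leaving out single libraries. The members' median of -0.10 turned to 0.13 with the enterocyte covariate and 0.14 without KO4 and KO5. Members not overlapping between genotypes numbered 1, and 1 to 2 with single libraries left out. Without KO4 and KO5 the count was 2. Angptl4 was lower in each of these settings, where 1.82% to 3.96% of all genes were lower without single libraries and 5.94% without KO4 and KO5. Pparg was higher without KO5 (as 1.9% of all genes were) and without KO4 and KO5 (5.44%). Crot was lower without KO7 (3.96%). Leaving out single libraries, the difference of Gsdme ran from -3.71 to -2.88 and that of Angptl4 from -1.57 to -1.12, each with an exact permutation p of 0.0571, the smallest that 7 libraries allow. Angptl4 was negative in all settings. Directions of other genes turned, and the cause was not tested. With the enterocyte covariate and without KO4 and KO5, in that order, log2 fold changes were 0.19 and 0.23 for Cpt1a, 0.079 and 0.099 for Cpt2, 0.019 and 0.082 for Acadm, 0.17 and 0.17 for Acadvl, 0.21 and 0.23 for Acads, 0.14 and 0.24 for Hadh, 0.13 and 0.13 for Hadha, 0.072 and 0.065 for Hadhb, 0.0046 and 0.081 for Ehhadh, 0.11 and 0.15 for Acaa1a, 0.70 and 0.82 for Acaa1b, 0.15 and 0.17 for Acaa2, 0.15 and 0.18 for Crat, 0.27 and 0.26 for Acot2, 0.18 and 0.19 for Acsl5, 0.092 and 0.10 for Etfdh, 0.13 and 0.14 for Decr1, 0.089 and 0.13 for Eci1, and 0.18 and 0.20 for Vnn1. Fabp2 was 0.072 without KO4 and KO5. Cpt1a was 0.0026 with TMM, 0.038 with quantile scaling, 0.080 with array weights, 0.0051 with the epithelial covariate, 0.018 in edgeR and 0.013 in DESeq2. Array weights gave 0.032 for Acads, 0.12 for Acaa1b, -0.050 for Slc25a20, 0.16 for Acot2 and 0.020 for Decr1. Creb3l3 was -0.047 in edgeR and -0.051 in DESeq2. Single libraries left out gave -0.095 to 0.11 for Cpt1a, -0.22 to 0.028 for Acadvl, -0.17 to 0.097 for Acads, -0.16 to 0.015 for Hadha, -0.97 to 0.10 for Acaa1b, -0.32 to 0.036 for Acaa2, -0.025 to 0.26 for Pdk4, -0.11 to 0.039 for Ppard, -0.13 to 0.12 for Slc25a20, -0.076 to 0.15 for Plin2, -0.26 to 0.16 for Acot2, -0.099 to 0.099 for Acsl1, -0.26 to 0.042 for Acsl5, -0.22 to 0.0031 for Etfdh, -0.14 to 0.025 for Decr1, -0.0023 to 0.15 for Eci2 and -0.33 to 0.21 for Creb3l3. No paired analysis was possible because the column headers number the libraries differently from the mice in the labels. With 4 libraries per genotype, the 95% intervals of the tested members other than Angptl4 include 0 and do not show that levels were equal, and Ppara rests on as few as 27 reads in a library.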
